A study of Mus musculus with 4 samples.

Results

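Chemokines are small secreted proteins that guide white blood cells and other motile cells along gradients. The CXC and CC families are named after the spacing of their conserved cysteines, and the ligands act on G protein-coupled receptors that differ between classes of leukocyte. In the mammary gland, epithelial and stromal chemokines are known for recruiting macrophages and other immune cells to the growing ducts. The transcripts of 10 chemokine ligand genes, Cxcl10, Cxcl9, Ccl2, Ccl5, Ccl7, Cxcl1, Cxcl2, Cxcl12, Cxcl14 and Cxcl16, were followed through 4 libraries of mouse mammary basal cells. They were selected by name on their values in these same libraries, so their levels and differences are a description and carry no test. They are 10 of the 17630 genes listed and 10 of 36 listed chemokine ligands, and all 10 were above 0 in each library.

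The study asked how sympathetic nerves act on mammary development and mammary stem cells. Each condition had 1 library, so no value has a replicate error and no difference between conditions could be tested. The control sorted library came from untreated mice of wild-type genotype (WT), from which basal cells were sorted by flow cytometry with the surface proteins CD24 and CD29 after cells carrying CD31 (endothelial), CD45 (leukocyte) or TER119 (erythroid) had been labelled. The 6-OHDA sorted library came from WT mice given 6-hydroxydopamine, a toxin taken up by noradrenergic nerve endings, which the study injected under the skin. The other libraries are labelled as primary basal cells too, and that they are colonies grown in Matrigel, a basement membrane gel, was inferred from the series' design text, a treatment label and the paired titles. The control colonies had no treatment. The SP colonies were grown with salbutamol plus phenylephrine, agonists of β2 and α1 adrenergic receptors, and their title carries the number 200 without a unit. The labels give neither strain nor age, dose or culture time for these libraries.

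Levels are in FPKM, fragments per kilobase of transcript scaled to the library's fragments, which is per length and so allows levels of different genes to be set side by side. The listed FPKM summed to 508071 in control sorted cells, 517504 in 6-OHDA sorted cells, 577631 in control colonies and 588202 in SP colonies. Read totals were not used here, but the steps between low values of genes with 1 annotated transcript gave a rough 16.1 to 18.7 fragments for 1 FPKM on 1 kilobase, over the 4 libraries and assumed fragment lengths of 150 to 300 bases. Values well below 1 FPKM on short genes therefore rest on few fragments. A difference is given on the scale of log2(FPKM + 1), which understates changes of low genes, and a gene was called lower or higher when that difference exceeded 0.3 in size, the study's own fold threshold. Counts at a threshold of 1 are given as well.

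The basal label was checked against 10 markers, all of which were at 1 FPKM or more in each library. Their sum was 11203 FPKM in control sorted cells, 10235 with 6-OHDA, 6733 in control colonies and 14610 in SP colonies, led in each by Krt14, a basal keratin. The sorted libraries also held transcripts of other cell types. All 8 endothelial markers were at 1 FPKM or more in both, with sums of 304 FPKM in control and 303 FPKM in 6-OHDA sorted cells, led by Pecam1, which encodes the CD31 used in the sort, at 107 and 93.0 FPKM. In control colonies these markers summed to 1.99 FPKM and in SP colonies to 1.85 FPKM, where Tie1 and Cldn5 were listed at 0. The 10 fibroblast markers summed to 208 FPKM in control and 407 FPKM in 6-OHDA sorted cells, led by Dcn in both, and to 42.0 and 13.2 FPKM in control and SP colonies, led by Col1a2 and Pdgfra.

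Leukocytes are the cells that most chemokines attract and are also a source of several. Of 18 listed leukocyte markers, 7 were at 1 FPKM or more in control sorted cells and 8 in 6-OHDA sorted cells, with sums of 127 and 48.6 FPKM, led by the MHC class II chaperone Cd74 at 73.0 and 19.5 FPKM. The lower sum with 6-OHDA lay in 3 genes of MHC class II antigen presentation, Cd74, H2-Ab1 (22.2 and 6.91 FPKM) and H2-Aa (16.65 and 7.16 FPKM), which together summed to 112 and 33.5 FPKM. The other 15 markers, a split made after the values were seen, summed to 15.5 and 15.1 FPKM. Ptprc, the gene of CD45, was at 0.77 and 0.47 FPKM in the sorted libraries and listed at 0 in both colony libraries, as was Adgre1, the gene of the macrophage protein F4/80. In colonies the leukocyte list summed to 57.7 FPKM without and 194 FPKM with SP, led by S100a8, which keratinized epithelia also express. The 6 pericyte markers summed to 40.4, 48.7, 24.7 and 18.7 FPKM in control sorted, 6-OHDA sorted, control colony and SP colony libraries. Rgs5 led in sorted cells, at 19.2 and 27.05 FPKM, and was at 0.10 and 0.14 FPKM in colonies. Notch3 made up most of the colony sums, at 22.5 and 17.3 FPKM, and was at 7.57 and 7.73 FPKM in sorted cells. Kcnj8 was listed at 0 in both colony libraries. The 6 adipocyte markers summed to 212, 376, 38.3 and 1.13 FPKM in the same order, led in each by Fabp4, which capillary endothelium also expresses, while Adipoq was at 0.18, 0.12, 1.66 and 0.06 FPKM. The 11 luminal markers summed to 1434, 1297, 1846 and 1869 FPKM, led by Krt8. Of 9 listed salivary gland secretory genes, 6 were at 0 in control sorted cells, where the list summed to 1.87 FPKM, against 15754 FPKM with 6-OHDA, led by Bpifa2 at 7277 FPKM. The sums in control and SP colonies were 1.36 and 1.11 FPKM. The part of these cell types in the chemokine levels was not tested, and in bulk libraries fewer cells of a type and less RNA per cell cannot be told apart.

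**Figure D1:**
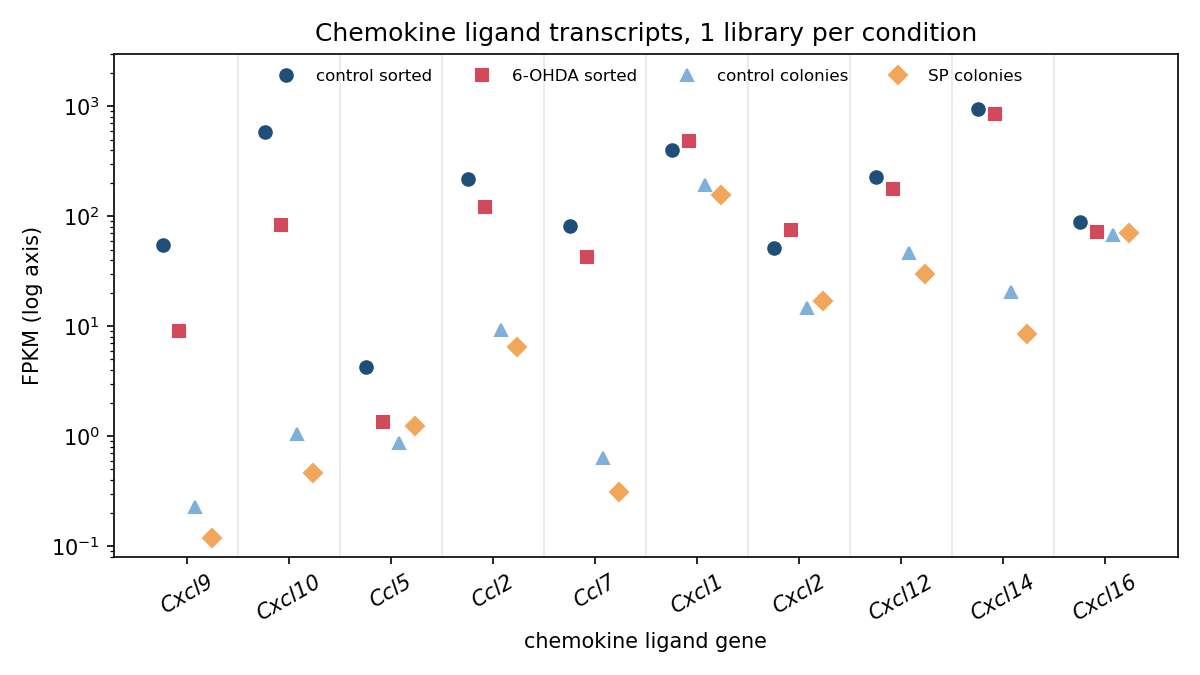
FPKM of the 10 chemokine ligand genes (log axis) in the 4 libraries, each point being 1 library. Cxcl10 runs from 584 FPKM in control sorted cells to 0.46 FPKM in SP colonies, while Cxcl16 stays between 67.3 and 89.7 FPKM.

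In control sorted cells the most abundant ligand was Cxcl14, at 944 FPKM and rank 92 of all listed genes. Cxcl10 followed at 584 FPKM (rank 144), then Cxcl1 at 400.0 FPKM (rank 192), Cxcl12 at 227.5 FPKM and Ccl2 at 217 FPKM. Cxcl16 at 89.7 FPKM, Ccl7 at 82.1 FPKM, Cxcl9 at 55.1 FPKM and Cxcl2 at 51.5 FPKM formed a lower tier, and Ccl5 was lowest at 4.27 FPKM. The 10 genes summed to 2655 FPKM, of which Cxcl14 made up 35.6% and Cxcl10 22%. Without replicates, no spread is known for this order.

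The comparison of 6-OHDA with control sorted cells sets 1 library from mice given 6-hydroxydopamine beside 1 from untreated mice. Both held transcripts of other cell types besides those of basal cells. The interferon-induced ligands were the members with the largest falls, the monocyte attractants fell by less, and the neutrophil attractant Cxcl2 rose. Among all 11749 genes compared, those with a mean of at least 1 FPKM, 981 (8.35%) were lower and 1857 (15.8%) were higher past 0.3. All 10 ligands were compared, and 7 were lower and 1 was higher. Past 1, 3 of the 10 were lower and 0 were higher, beside 0.902% lower and 1.05% higher of all genes. The median difference was -0.59 for the 10 genes and 0.06 for all genes compared. Of all genes past 0.3, 65.4% were higher, and 50.5% were with median-ratio scaling.

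Cxcl10 and Cxcl9 encode ligands of the receptor Cxcr3 on activated T cells and natural killer cells, and both are classical targets of interferons. Cxcl10 was at 584 FPKM in control and 84.1 FPKM in 6-OHDA sorted cells, a difference of -2.78, and 2 of the 11749 genes had a lower one. Cxcl9 went from 55.1 to 9.11 FPKM (-2.47), and 6 genes had a lower difference. Their control levels were 6.95 and 6.05 times the 6-OHDA levels. In the order of the 10 ligands Cxcl10 moved from place 2 to place 5, and its share of their sum from 22% to 4.35%. Ccl5, which attracts T cells and monocytes, went from 4.27 to 1.36 FPKM (-1.16).

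Ccl2 and Ccl7 attract monocytes through Ccr2. Ccl2 went from 217 FPKM in control to 121 FPKM in 6-OHDA sorted cells (-0.83), and Ccl7 from 82.1 to 42.7 FPKM (-0.93). Both were lower by less than 1 on the log2 scale. Cxcl12, the ligand of Cxcr4 and of the scavenging receptor Ackr3, went from 227.5 to 179 FPKM (-0.34). Cxcl16, a ligand of Cxcr6 that is made as a membrane protein and shed by the protease Adam10, went from 89.7 to 72.65 FPKM (-0.30), at the threshold itself, and was on the other side of it with a pseudocount of 5 (-0.29) and after rescaling without the salivary gland genes (-0.28).

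Cxcl1 and Cxcl2 attract neutrophils through Cxcr2. Cxcl2 rose from 51.5 to 75.7 FPKM (0.55). Cxcl1 was at 400.0 FPKM in control and 489.8 FPKM in 6-OHDA sorted cells (0.29), under the threshold, and passed it after quantile normalization (0.32) and after rescaling without the salivary gland genes (0.31). Cxcl14, an epithelial chemokine that is abundant in skin, was at 944 and 858 FPKM (-0.14) and was in place 1 of the 10 in both libraries. With 6-OHDA the order was Cxcl14, Cxcl1, Cxcl12, Ccl2, Cxcl10, Cxcl2, Cxcl16, Ccl7, Cxcl9 and Ccl5, and the 10 genes summed to 1934 FPKM, 72.8% of the control sum. Cxcl14 and Cxcl1 made up 44.4% and 25.3% of it. Among all listed genes Cxcl10 was at rank 144 in control and 968 in 6-OHDA sorted cells, and Cxcl9 at ranks 1464 and 6417. Over the alternative settings the difference of Cxcl10 was between -2.84 and -2.73 and that of Cxcl9 between -2.58 and -2.09. Ccl5, a low gene, ranged from -1.58 to -0.54.

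Position on the chromosome was not used to choose the genes. Coordinates are those of RefSeq on GRCm38.p6, the assembly called mm10 in the submitters' notes. Cxcl9 (NCBI Gene 17329, chr5:92321331-92328079) and Cxcl10 (15945, chr5:92346638-92348889) lie close together. Ccl5 (20304, chr11:83525778-83530518), Cxcl16 (66102, chr11:70454389-70459984), Cxcl12 (20315, chr6:117168535-117181368) and Cxcl14 (57266, chr13:56288643-56296811) lie apart from the others. Ccl2 (20296, chr11:82035577-82037452), Ccl7 (20306, chr11:82045712-82047525) and Ccl11 (chr11:82057832-82062955), whose product attracts eosinophils, lie within the same cluster, and Ccl11 went from 35.6 to 18.2 FPKM (-0.93), close to the differences of Ccl2 and Ccl7. Further along, 2 ligands below the minimum mean differed in opposite directions. Ccl12 (chr11:82101845-82103399) was at 0.66 FPKM in control and listed at 0 with 6-OHDA, and Ccl8 (chr11:82115185-82116799) was at 0.49 and 1.48 FPKM. Cxcl1 (14825, chr5:90891245-90893121) and Cxcl2 (20310, chr5:90903899-90905938) share a cluster with Cxcl3 (chr5:90786101-90788093), which rose from 5.60 to 7.91 FPKM (0.43, and 0.28 at a pseudocount of 5). In the same cluster Cxcl5 (chr5:90759298-90761625) fell from 23.9 to 14.2 FPKM (-0.71), and Pf4, a gene of platelets and megakaryocytes, fell from 4.95 to 0.93 FPKM (-1.62). Pf4, a low gene, ranged from -2.29 to -0.75 over the alternative settings. It passed the filter only through its level in control sorted cells and had to be lower. The differences within that cluster thus ran in both directions, also without Pf4.

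**Figure D2:**
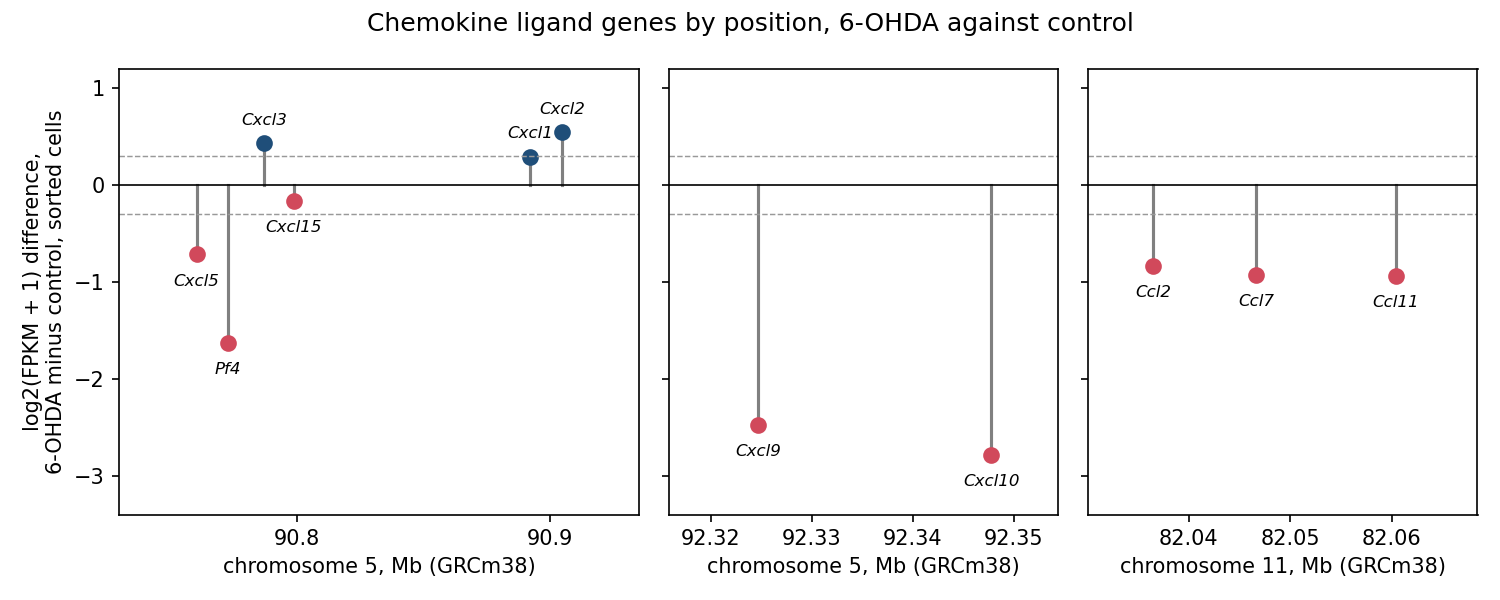
Difference of log2(FPKM + 1) between 6-OHDA and control sorted cells (vertical axis) for chemokine ligand genes by position on chromosomes 5 and 11 (horizontal axis, Mb), 1 point per gene compared, with dashed lines at 0.3 above and below 0. Cxcl9 and Cxcl10 are at -2.47 and -2.78, Ccl2, Ccl7 and Ccl11 between -0.83 and -0.93, and the cluster of Cxcl1 and Cxcl2 has values on both sides of 0.

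Of the other 26 listed chemokine ligands, 13 were compared between 6-OHDA and control sorted cells, of which 6 were lower and 3 higher, with a median of -0.16. Those lower include Pf4, which had to be lower. The most abundant was Ccl21a, a lymphatic endothelial ligand of Ccr7, which went from 678 to 298 FPKM (-1.18). Its value is uncertain because the mouse genome holds near-identical copies of this gene. Ccl19, the other Ccr7 ligand, went from 28.2 to 13.1 FPKM (-1.05), and Ccl4, which attracts monocytes and T cells, from 3.70 to 1.21 FPKM (-1.09). At a pseudocount of 5 the difference of Ccl4 was -0.49. Those higher were Cxcl3, Ccl20, a Ccr6 ligand, from 3.55 to 6.98 FPKM (0.81), and Cxcl17, a mucosal chemokine, from 2.22 to 4.32 FPKM (0.72). With a pseudocount of 5 the differences were 0.49 for Ccl20 and 0.37 for Cxcl17. Cx3cl1, the membrane-bound ligand of Cx3cr1, was at 104 and 96.0 FPKM (-0.11) and Cxcl13, a ligand of Cxcr5 on B cells, at 31.2 and 34.5 FPKM (0.14).

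Transcripts of several classical receptors of these ligands were near 0. Cxcr3 was at 0.04 FPKM in control sorted cells and listed at 0 with 6-OHDA, Ccr2 was at 0.03 and 0.09 FPKM, Cxcr2 at 0.18 and 0.15 FPKM, and Cxcr6 at 0.14 and 0.11 FPKM. Of 21 listed receptors, 6 were compared, of which 2 were lower and 0 higher. Most of these were atypical receptors, which bind chemokines without G protein signalling. Ackr3 was at 113 and 97.6 FPKM (-0.20), and Ackr1, a receptor of venular endothelium and red cells, at 96.7 and 95.0 FPKM (-0.03). Ackr2 fell from 7.72 to 5.41 FPKM (-0.44, and -0.29 at a pseudocount of 5) and Ccrl2, which binds chemerin, from 9.24 to 6.47 FPKM (-0.46). Cxcr4, the signalling receptor of Cxcl12, was at 14.9 and 13.8 FPKM (-0.10).

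Of 5 genes of proteases that cut chemokines, 4 were compared. Adam10 rose from 24.3 to 31.9 FPKM (0.38). Adam17, another sheddase, was at 9.19 and 11.7 FPKM (0.31), and was under the threshold at a pseudocount of 5 (0.23), with the same sum (0.29), with the median ratio (0.26) and after quantile normalization (0.26). Mmp2 fell from 94.3 to 68.2 FPKM (-0.46).

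Interferon signalling and NF-κB are the textbook inputs to Cxcl9, Cxcl10 and the neutrophil attractants. Of 20 listed genes of interferon signalling, 17 were compared between 6-OHDA and control sorted cells, of which 8 were lower and 2 higher, with a median of -0.30. Among the largest differences were those of the transcription factors Irf8, from 29.0 to 8.48 FPKM (-1.66), and Irf7, from 38.8 to 19.4 FPKM (-0.96). The most abundant was Socs3, a feedback inhibitor, at 353 and 276 FPKM (-0.35). The interferon genes themselves were near 0, with Ifnb1 at 0.11 FPKM in control and listed at 0 with 6-OHDA, and Ifng listed at 0 in control and at 0.06 FPKM with 6-OHDA. Of all genes compared, 8.35% were lower and 15.8% higher. Of 17 genes of NF-κB signalling, all compared, 1 was lower and 0 higher, with a median of -0.09. The gene lower was Myd88, a Toll-like receptor adaptor, from 62.7 to 50.1 FPKM (-0.32), which was just under the threshold at a pseudocount of 5 and with the same sum without salivary gland genes (both -0.30), and Nfkbia, which encodes the inhibitor IκBα, was at 203 and 212 FPKM (0.06). After scaling by the median ratio 3 NF-κB genes were lower.

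Of 20 listed inflammatory cytokines and receptors, 19 were compared, of which 5 were lower and 2 higher, with a median of -0.12. The largest difference was that of Tlr3, a sensor of double-stranded RNA, from 7.39 to 2.43 FPKM (-1.29). It ranged from -1.57 to -0.74 over the alternative settings. Il1rn, the interleukin-1 receptor antagonist, went from 2.03 to 0.98 FPKM (-0.61, and -0.23 at a pseudocount of 5), and Il6 rose from 139 to 196 FPKM (0.49). Il1rn passed the filter only through its level in control sorted cells and had to be lower. The most abundant gene was Csf1, the macrophage growth factor, at 258 and 213 FPKM (-0.27), and it passed the threshold with the median ratio (-0.33).

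The comparison of SP with control colonies sets 1 library of colonies grown with adrenergic agonists beside 1 of colonies grown without them. Cxcl14, Cxcl12, Ccl2 and Cxcl1 were lower with SP, Cxcl14 by the most. No ligand of the 10 was called higher, except Ccl5 under 2 of the 9 alternative settings, and Ccl5 passed the filter only through SP colonies. Of the 11849 genes compared, 2351 (19.8%) were lower and 1385 (11.7%) higher past 0.3. The filter passed 7 of the 10 ligands, of which 4 were lower and 0 higher. Past 1, 1 of the 7 was lower and 0 were higher, beside 1.33% and 2% of all genes. The median was -0.31 for the 7 genes and -0.07 for all genes. Of all genes past 0.3, 37.1% were higher, and 49.9% were after scaling by the median ratio.

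Cxcl14 was at 20.5 FPKM in control and 8.47 FPKM in SP colonies (-1.18), and 94 of the 11849 genes had a lower difference. Cxcl12 fell from 46.9 FPKM without SP to 30.2 FPKM with it (-0.62). The levels of Ccl2 were 9.23 and 6.46 FPKM (-0.46). Cxcl1 went from 194 to 156 FPKM (-0.31) and was under the threshold after scaling by the median ratio (-0.24). It was the most abundant of the 10 in both colony libraries, with 54.6% of their sum in control and 53.6% in SP colonies. Cxcl2 was at 14.8 and 17.1 FPKM (0.20) and Cxcl16 at 67.3 and 70.55 FPKM (0.07). Ccl5 was at 0.87 and 1.24 FPKM (0.26), and passed the threshold upward with a pseudocount of 0.1 (0.47) and after quantile normalization (0.34). Ccl5 passed the filter only through its level in SP colonies and had to be higher.

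The other 3 ligands were below the minimum mean in colonies. Cxcl10 was at 1.06 FPKM in control and 0.46 FPKM in SP colonies, Ccl7 at 0.63 and 0.31 FPKM, and Cxcl9 at 0.23 and 0.12 FPKM. Each had the lower value with SP, at levels that rest on few fragments. The 10 ligands summed to 356 FPKM in control and 291 FPKM in SP colonies, 81.8% of it, with Cxcl1, Cxcl16 and Cxcl12 in places 1 to 3 of both. Cxcl14 was in place 4 without and place 5 with SP, where Cxcl2 was above it. Over the alternative settings its difference was between -1.26 and -0.92, and that of Cxcl12 between -0.64 and -0.55.

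Of the other chemokine ligands, 8 were compared between SP and control colonies, of which 3 were lower and 2 higher, with a median of -0.22. Cx3cl1 fell from 122 to 55.0 FPKM (-1.14), Ccl27a from 12.2 to 7.27 FPKM (-0.67) and Ccl8 from 2.13 to 0.22 FPKM (-1.36). Ccl8, a low gene, ranged from -2.80 to -0.45 over the alternative settings. It passed the filter only through its level in control colonies and had to be lower. Cxcl5 rose from 46.2 to 71.8 FPKM (0.62) and Cxcl3 from 1.70 to 2.89 FPKM (0.53, and 0.24 at a pseudocount of 5). Of the receptors, 4 were compared, with Cxcr4 lower, from 10.8 to 5.92 FPKM (-0.76), and Ackr3 higher, from 5.27 to 7.40 FPKM (0.42, and 0.27 at a pseudocount of 5). Both are receptors of Cxcl12.

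Among the protease genes 2 of 4 compared were lower with SP, Mmp2 from 32.2 to 21.1 FPKM (-0.59) and Mmp9 from 7.99 to 4.93 FPKM (-0.60), and Adam10 was at 69.6 and 70.5 FPKM (0.02). Of 16 interferon signalling genes compared, 2 were lower and 0 higher, Irf7 from 6.85 to 4.71 FPKM (-0.46, and -0.29 at a pseudocount of 5) and Ifnar2, a subunit of the type I interferon receptor, from 29.6 to 23.0 FPKM (-0.35, and -0.28 with the median ratio). Of 17 NF-κB genes, 2 were lower and 1 higher, with a median of -0.07. The interferon and NF-κB lists thus had smaller shares lower and higher than all genes compared, at 19.8% and 11.7%. Nfkbie, an inhibitor, fell from 9.23 to 5.43 FPKM (-0.67), and Rel rose from 2.88 to 4.39 FPKM (0.47, and 0.25 at a pseudocount of 5). Myd88 was at 28.5 and 22.9 FPKM (-0.30), and was under the threshold at a pseudocount of 5 (-0.26), with the median ratio (-0.23) and after quantile normalization (-0.26). Of 15 inflammatory genes compared, 7 were lower and 2 higher, led by Il1a, an epithelial alarm cytokine, which rose from 9.01 to 34.2 FPKM (1.81), and Csf1, which fell from 66.2 to 34.3 FPKM (-0.93). Tlr2, a sensor of bacterial lipoproteins, fell from 49.4 to 28.2 FPKM (-0.79).

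Control colonies were set against control sorted cells to show how the ligands differ between culture and tissue. Every one of the 10 was lower in colonies, with Cxcl16 closest to its level in sorted cells and Cxcl10 furthest from it. Culture, time and enzyme handling differed between these libraries and cannot be told apart, and this comparison shares a control with each of the other comparisons. The median difference of the 12244 genes compared was 0.45, so values relative to that shift are given as well. Of these genes, 3252 (26.6%) were lower and 6817 (55.7%) higher past 0.3, so that 67.7% of the genes past it were higher, against 50.2% after scaling by the median ratio. All 10 ligands were lower past 0.3, also relative to the shift, and 9 of the 10 were lower past 1, beside 13.2% lower and 30.7% higher of all genes. Ccl5 was not past 1 under every alternative setting. Several ligands, Cxcl9 and Ccl7 among them, passed the filter only through their level in sorted cells and had to differ.

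The summed level of the 10 ligands was 2655 FPKM in control sorted cells and 356 FPKM in control colonies, 13.4% of it. The endothelial markers in control colonies summed to 0.654% of their level in control sorted cells and the fibroblast markers to 20.2%. Of the 10 basal markers 7 were lower and 1 was higher, with a median of -1.80, and 6 were lower past 1. The largest differences were those of the contractile genes Myh11, at 467 and 11.2 FPKM (-5.26), Mylk, at 116 and 3.33 FPKM (-4.76), and Cnn1, at 515 and 30.4 FPKM (-4.04). The basal keratin genes Krt14 and Krt5 were at 3595 and 3298 FPKM (-0.12) and at 1002 and 1888 FPKM (0.91). The part of these differences in the ligand levels was not tested. Cxcl10 was at 584 FPKM in sorted cells and 1.06 FPKM in colonies (-8.15, and -8.60 relative to the shift), and 2 of the genes compared had a lower difference. Cxcl9 was at 55.1 and 0.23 FPKM (-5.51), Ccl7 at 82.1 and 0.63 FPKM (-5.67), and Cxcl14 at 944 and 20.5 FPKM (-5.46). The difference of Cxcl9 ranged from -7.39 to -3.52 over the alternative settings. Cxcl14 moved from place 1 to place 4 of the 10.

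Ccl2 was at 217 FPKM in sorted cells and 9.23 FPKM in colonies (-4.41), and Cxcl12 at 227.5 and 46.9 FPKM (-2.26). The neutrophil attractants differed by less, with Cxcl1 at 400.0 and 194 FPKM (-1.04) and Cxcl2 at 51.5 and 14.8 FPKM (-1.73). Ccl5 was at 4.27 and 0.87 FPKM (-1.49), and ranged from -2.17 to -0.66 over the alternative settings. Cxcl16, at 89.7 and 67.3 FPKM (-0.41, and -0.86 relative to the shift), moved from place 6 to place 2. The sorted level was 551 times the colony level for Cxcl10, 239 times for Cxcl9, 130 times for Ccl7, 46.1 times for Cxcl14 and 23.5 times for Ccl2. It was 4.91 times for Ccl5, 4.85 times for Cxcl12, 3.48 times for Cxcl2, 2.06 times for Cxcl1 and 1.33 times for Cxcl16. Ranks among all listed genes moved from 92 to 4474 for Cxcl14, while Cxcl1 was at 192 and 396 and Cxcl16 at 903 and 1285.

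Of the other chemokine ligands, 15 were compared between the controls, of which 8 were lower and 4 higher in colonies, with a median of -0.56. Ccl21a, at 678 FPKM in sorted cells, and Pf4 and Ccl4 were listed at 0 in control colonies. Ccl11 was at 35.6 and 0.34 FPKM (-4.77), Ccl19 at 28.2 and 0.38 FPKM (-4.40) and Cxcl13 at 31.2 and 0.25 FPKM (-4.69). Ccl11, Ccl19, Cxcl13, Ccl21a, Pf4 and Ccl4 passed the filter only through their level in sorted cells and had to be lower. Ccl8 passed only through its level in colonies and had to be higher. Those higher in colonies were Cxcl17 (1.32), Ccl8 (1.07), Cxcl5 (0.93) and Ccl20 (0.72), of which Ccl20 was under 0.3 relative to the shift (0.27) and after quantile normalization (0.19). Of the receptors, 6 were compared and all 6 were lower, with Ackr1 and Ackr2 listed at 0 in colonies, Ackr3 at 113 and 5.27 FPKM (-4.18) and Cxcr4 at 14.9 and 10.8 FPKM (-0.43). Ackr1 and Ackr2 passed the filter only through their level in sorted cells and had to be lower.

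The protease genes had 1 lower and 3 higher of 4 compared, Mmp2 lower (-1.52) and Adam17 (1.71), Adam10 (1.48) and Mmp9 (1.10) higher. Of 17 interferon signalling genes 12 were lower and 5 higher, with the largest differences in Irf8, at 29.0 and 0.06 FPKM (-4.82), Socs1, a feedback inhibitor, at 20.1 and 0.87 FPKM (-3.49), and Socs3, at 353 and 57.1 FPKM (-2.61). Of 17 NF-κB genes 11 were lower and 3 higher, with a median of -0.67, and relative to the shift 13 were lower and 1 higher. Bcl3, an atypical IκB protein, was at 60.5 and 9.75 FPKM (-2.52). Of 17 inflammatory genes 10 were lower and 6 higher, among them Il6, at 139 and 0.25 FPKM (-6.81), and Csf3, the neutrophil growth factor, at 117 and 12.5 FPKM (-3.13). Il1rn, at 2.03 and 24.0 FPKM (3.05), was higher in colonies. Irf8, Socs1 and Il6 passed the filter only through their level in sorted cells and had to be lower.

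The 4 libraries together give each ligand a profile, and the genes nearest to it were found by the distance between centred log2(FPKM + 1) values over the 4 libraries, for the 9 ligands with at least 20 FPKM in a library and among genes with a mean of at least 5 FPKM. Nearest to Cxcl9 were Ifit3 (distance 0.38), Cmpk2 (0.42) and Cd274 (0.43), and nearest to Cxcl10 were Rsad2 (1.53), Iigp1 (1.67) and Eln (1.95), at larger distances. Nearest to Ccl2 were Ccl19 (0.19), Ccl11 (0.27) and Ch25h (0.36), and among those nearest to Ccl7 were Clca3a1 (0.43) and Has1 (0.44). For Cxcl1 they were Nectin3 (0.06), Fermt2 (0.06) and Lrrc32 (0.07), for Cxcl2 Nes (0.15), Dpysl3 (0.15) and Chac1 (0.16), and for Cxcl12 Nkd1 (0.08), Foxj1 (0.12) and Fhod3 (0.16). For Cxcl14 they were Clca3a2 (0.49), Srgn (0.71) and Dcn (0.73), and for Cxcl16 Oaz1 (0.05), Pelp1 (0.06) and Myo1d (0.07).

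Promoter sequences were read for the neighbours on chromosome 5 whose transcripts fell together and for the pair that did not, to show which known elements each carries. RefSeq windows on GRCm38.p6 matched 6 of the 10 ligands, Cxcl1, Cxcl2, Cxcl9, Cxcl10, Cxcl12 and Cxcl14, and were missing for Ccl2, Ccl5, Ccl7 and Cxcl16. In the 250 bases before the start that RefSeq's promoter table gives, both strands were searched for the core of the interferon-stimulated response element (ISRE, GAAANNGAA), the gamma-activated site (GAS, TTCNNNGAA), the NF-κB consensus and the cAMP response element (TGACGTCA). Of 32851 windows of that length, 7.13% held the ISRE core, 7.02% the GAS, 7.25% the NF-κB consensus and 1.55% the cAMP element. Cxcl10 held 1 ISRE core and 3 NF-κB matches, of which a pair overlap, Cxcl9 held 1 ISRE core, and Cxcl1 and Cxcl2 each held 2 overlapping NF-κB matches, 1 on each strand. Cxcl12 held none of these motifs. The window of Cxcl14 (chr13:56296552-56296801, minus strand) lies inside the gene as listed, not upstream of it, and held 1 ISRE core and 1 GAS. The sequences of Cxcl10 (chr5:92348890-92349139, minus strand), Cxcl9 (chr5:92328080-92328329, minus strand), Cxcl1 (chr5:90890995-90891244, plus strand) and Cxcl2 (chr5:90903649-90903898, plus strand) run 5′ to 3′ toward the gene start, with ISRE core and NF-κB matches in capitals. A match is a run of letters and shows no binding.
Cxcl10: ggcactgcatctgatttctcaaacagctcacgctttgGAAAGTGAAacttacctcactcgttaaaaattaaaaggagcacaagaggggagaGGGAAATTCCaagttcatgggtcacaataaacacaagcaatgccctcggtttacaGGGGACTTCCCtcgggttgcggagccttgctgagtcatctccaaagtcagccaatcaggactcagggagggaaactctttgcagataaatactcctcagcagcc
Cxcl9: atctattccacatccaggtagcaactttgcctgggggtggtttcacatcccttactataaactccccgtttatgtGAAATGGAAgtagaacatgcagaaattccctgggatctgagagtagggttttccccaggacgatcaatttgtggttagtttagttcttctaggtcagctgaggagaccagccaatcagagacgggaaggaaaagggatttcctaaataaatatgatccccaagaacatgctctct
Cxcl1: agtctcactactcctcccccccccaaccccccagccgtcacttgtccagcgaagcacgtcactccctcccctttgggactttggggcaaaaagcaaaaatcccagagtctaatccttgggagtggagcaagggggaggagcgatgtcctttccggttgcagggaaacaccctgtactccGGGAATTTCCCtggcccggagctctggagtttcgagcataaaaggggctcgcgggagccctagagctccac
Cxcl2: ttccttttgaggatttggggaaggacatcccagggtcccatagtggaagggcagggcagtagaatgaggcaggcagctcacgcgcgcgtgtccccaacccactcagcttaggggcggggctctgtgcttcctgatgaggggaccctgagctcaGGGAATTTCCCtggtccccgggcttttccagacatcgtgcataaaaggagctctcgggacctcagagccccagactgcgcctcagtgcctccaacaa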

How the data were processed

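RNA-seq libraries of sorted basal cells and basal colonies, 4 in all and 1 per condition, were analysed from the FPKM values that the authors deposited with 2 decimals. The submitters' processing notes name Bowtie2, RSEM 1.3.1 and DESeq2 1.4.5 and the build mm10, with no role or order. Gene IDs were matched to RefSeq symbols (17512 matched, 118 not). The members and gene lists were chosen with earlier results of these data known. Differences of log2(FPKM + 1) were taken for 3 comparisons over genes with a mean of at least 1 FPKM in both libraries together, with Python 3.11.15, numpy 2.4.6 and pandas 2.3.3, and the counting was tested on simulated data. Named were the 10 ligands, every other ligand or receptor with at least 1 FPKM in a library, and of other lists at most the 3 most abundant genes and the 3 with the largest change per comparison, besides markers listed at 0. Ccl12, Cxcr2, Cxcr3, Cxcr6, Ccr2, Ifnb1, Ifng, Mmp9 and Pdgfra were named after their values were seen. Some genes that the rule covers are not reported here. Planned protein features were not run. Alternatives were 9 settings of pseudocount, filter, scaling and threshold.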

Additional observations from a re-analysis of the deposited data

How the results depend on the processing

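With 1 library per condition, no leave-one-out was run and no spread between mice or cultures is known. No paired analysis was possible because each group holds 1 library. Of the ligands' values under alternative settings, 75 of 79 kept their side of 0.3 for 6-OHDA, 52 of 55 for SP and 79 of 79 between the controls. The exceptions with 6-OHDA were Cxcl1 (0.32 after quantile normalization, 0.31 with the same sum without salivary gland genes) and Cxcl16 (-0.29 at a pseudocount of 5, -0.28 with the same sum without salivary gland genes). With SP they were Ccl5 (0.47 at a pseudocount of 0.1, 0.34 after quantile normalization) and Cxcl1 (-0.24 with the median ratio). Of the other named genes' values, 543 of 559, 397 of 411 and 534 of 555 kept their side, in the same order. Between the controls, Krt18 (-0.0838) and Krt8 (-0.19) reversed with the median ratio. Counts moved by over 1.5 times as follows, and the cause was not tested.

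At a fold threshold of 1, for 6-OHDA, ligands were 3 lower and 0 higher, other ligands 0 higher, receptors 0 lower, processing genes 0 lower and 0 higher, interferon genes 1 lower and 0 higher, NF-κB genes 0 lower, and inflammatory genes 1 lower and 0 higher. For SP, ligands were 1 lower, other ligands 0 higher, receptors 0 lower and 0 higher, processing genes 0 lower, interferon genes 0 lower, NF-κB genes 0 lower and 0 higher, and inflammatory genes 0 lower and 1 higher. Between the controls, other ligands were 2 higher, interferon genes 3 higher, NF-κB genes 7 lower and 1 higher, and inflammatory genes 3 higher.

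At a pseudocount of 5, for 6-OHDA, receptors were 1 lower, processing genes 1 higher, interferon genes 1 higher, NF-κB genes 0 lower, and inflammatory genes 3 lower and 1 higher. For SP, other ligands were 1 higher, receptors 0 higher, interferon genes 1 lower, and NF-κB genes 1 lower and 0 higher. Between the controls, NF-κB genes were 1 higher. At a pseudocount of 0.1, inflammatory genes were 4 higher for 6-OHDA, and ligands and interferon genes each 1 higher for SP.

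With no filter, other ligands were 10 lower and 5 higher and receptors 4 lower for 6-OHDA, other ligands 6 lower and 4 higher for SP, and 14 lower between the controls. At a mean FPKM of at least 5, inflammatory genes were 2 lower and 1 higher for 6-OHDA, other ligands 1 higher and NF-κB genes 0 higher for SP, and other ligands 4 lower and 2 higher between the controls.

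After quantile normalization, ligands were 2 higher and processing, interferon and inflammatory genes each 1 higher for 6-OHDA, ligands and interferon genes each 1 higher and NF-κB genes 1 lower for SP, and NF-κB genes 1 higher between the controls. With the median ratio, processing genes were 1 higher and NF-κB genes 3 lower for 6-OHDA. For SP, interferon genes were 1 lower and 1 higher, NF-κB genes 1 lower and inflammatory genes 4 higher, and between the controls NF-κB genes were 1 higher. With the same sum, processing genes were 1 higher and NF-κB genes 2 lower for 6-OHDA, and NF-κB genes 1 higher between the controls. With the same sum without salivary gland genes, ligands were 2 higher and NF-κB genes 0 lower for 6-OHDA, and NF-κB genes 1 higher between the controls.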
